A study of Mus musculus with 6 samples.

Results

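The Id1 locus was examined as a 200 kb interval of mouse chromosome 2 (mm9 positions 152460000 to 152660000), centred close to the start of Id1. Every SMAD1/5 peak that overlapped this interval was taken, which gave 19 of the 24441 peaks in the 4 deposited lists. The Id1 start was set at 152562000, an approximate position on the plus strand, because no mm9 annotation was used here. Distances are therefore approximate, a negative distance is upstream of Id1, and whether a peak lies in an exon, an intron or a UTR was not determined.

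The study mapped SMAD1/5 by chromatin immunoprecipitation and sequencing (ChIP-seq) with an anti-Smad1 antibody in mouse pluripotent cells. The primed cells were ESD-EpiSCs, epiblast stem cells obtained by differentiating the E14 embryonic stem cell line and kept with FGF2 and Activin A. They were given 10 ng/ml BMP-4 for 24 h or for 1.5 h. The naive cells were E14 embryonic stem cells (ESCs) themselves, kept in LIF with 10 ng/ml BMP-4 in basal medium, or in LIF with serum. Each of these 4 groups was 1 library from a single parental line, so differences between groups have no replicate error to be set against, and none was tested. No BMP-4-free ESD-EpiSC library was analysed here. The effects of cell state, of medium, of BMP-4 exposure and of the library itself cannot be told apart. Peak lists carry no expression values, so the labelled cell types could not be checked against marker genes.

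Id1 encodes an inhibitor of DNA binding, a helix-loop-helix protein that lacks the basic region needed to contact DNA. It pairs with E proteins and keeps them from activating lineage genes. BMP ligands signal through receptor kinases that phosphorylate SMAD1, SMAD5 and their relative SMAD8/9. The activated SMADs join SMAD4, enter the nucleus and bind target genes, of which Id1 is among the best known, with BMP-responsive elements in its upstream promoter region. In mouse ESCs, Id proteins are known as a route by which BMP works with LIF to sustain self-renewal. By RefSeq gene order in GRCm38.p6, Id1 stands next to Mcts2 and H13 on its upstream side and, beyond the pseudogene Gm14162 and the noncoding gene Gm32057, next to Cox4i2 on its downstream side. No peak was assigned to any of these neighbours.

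Of the 10 places called around Id1, 3 had an ESD-EpiSC peak, against 1.75% of the merged regions of the genome, and 2 of the 10 had both an ESD-EpiSC and an ESC peak, against 0.478% of all merged regions. ESD-EpiSCs had 3 peaks after 24 h and 3 peaks after 1.5 h of BMP-4, while ESCs had 8 peaks in LIF+BMP-4 and 5 peaks in LIF+serum. Merging overlapping peaks gave these 10 regions, lettered A to J from upstream to downstream. Regions C, G and H carried the ESD-EpiSC peaks, each at both times, as did 17 of the 18623 merged regions of the genome (0.0913%). That share is small partly because just 326 of the 18623 held a peak from either ESD-EpiSC list. For C, G and H the closer comparison is therefore 17 of 326. Regions A, B, D and J carried peaks in both ESC media, as did 29.5% of all merged regions. None of these 4 had an ESD-EpiSC peak. Over the genome, 55 of the 5503 regions called in both ESC media had an ESD-EpiSC peak of either time (0.295% of all merged regions). Lacking one was thus the usual case. Regions E, F and I were called in LIF+BMP-4 ESCs alone, the pattern of 48.3% of all regions, and 0 of the 10 were called in LIF+serum alone, against 20.7% of all regions. Of the 10 regions, 0 had a peak in all 4 lists, and over the genome 7 (0.0376%) did. Since depth is unknown, a place without a call is not a place without binding.

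**Figure D1:**
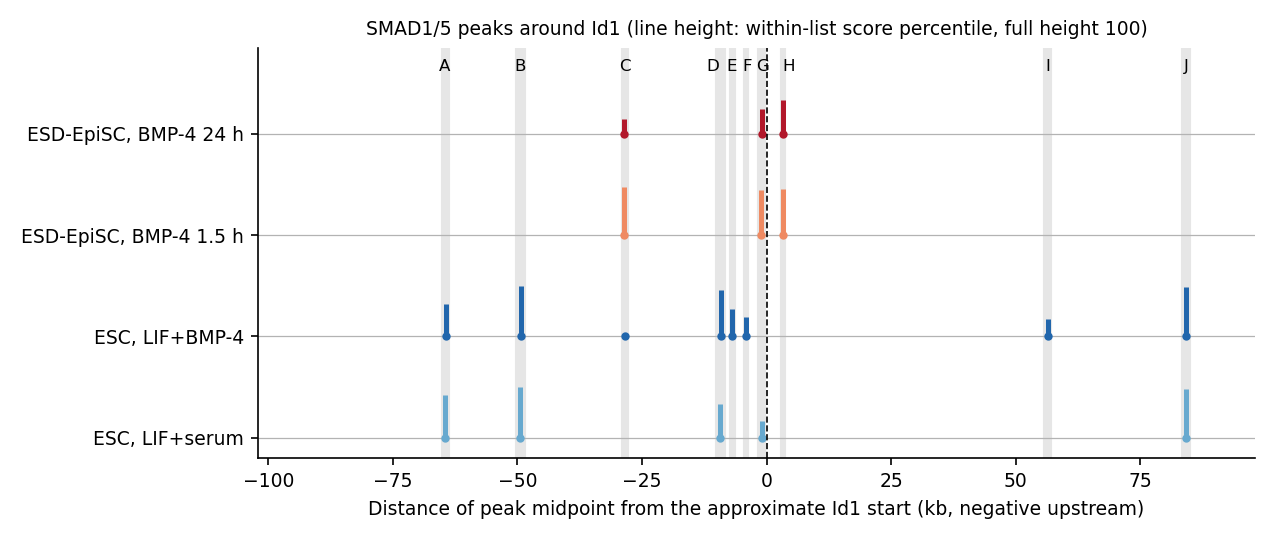
Positions of the 19 SMAD1/5 peaks by list, as distance of the peak midpoint from the approximate Id1 start (kb). Line height is the share of the same list with a lower score, and grey bands mark the merged regions A to J, widened for visibility. Both ESD-EpiSC rows hold peaks at C, G and H, whereas the ESC rows share A, B, D and J.

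The region nearest to the Id1 start was G, at 152560589 to 152561478, with its centre at -0.97 kb. It lay on the upstream side, where the BMP-responsive elements of Id1 are known, although the region was not matched to them by sequence. ESD-EpiSCs had a peak there of 112 bp after 24 h (152560993 to 152561104, midpoint at -0.95 kb) and one of 268 bp after 1.5 h (152560787 to 152561054, midpoint at -1.08 kb). ESCs had an 890 bp peak spanning the whole region in LIF+serum and no peak in LIF+BMP-4, where the closest call was F, 2.53 kb further upstream.

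The scores in region G placed it differently within each list. The deposited score is the authors' value for each peak and is used here to rank peaks inside one list, where rank 1 is the highest. A score minimum of 100 was also applied to each list as an alternative. The 24 h peak scored 59.5 and ranked 66 of 133, with 48.9% of its list scoring lower. The 1.5 h peak scored 147 and ranked 23 of 225, with 89.8% of its list lower. The LIF+serum peak scored 60.8 and ranked 6344 of 9387, with 32.4% of its list lower. By score, the site next to the gene thus stood near the middle of the 24 h list, high in the 1.5 h list and in the lower part of the LIF+serum list. By width, the LIF+serum peak exceeded 62.6% of its list.

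Region H lay on the downstream side, at 152565128 to 152565351, with its centre at 3.24 kb, and was called in ESD-EpiSCs alone. The 24 h peak measured 89 bp, scored 66.3 and ranked 44, the best of the 3 in that list. The 1.5 h peak measured 224 bp, scored 165 and ranked 20. The closest ESC peaks were 7.07 kb away in LIF+BMP-4 and 3.65 kb away in LIF+serum. Over the genome, 7 of the 17 regions called at both times had no ESC peak.

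Region C was the distal ESD-EpiSC site, at 152533218 to 152533995, with its centre at -28.4 kb. The 24 h peak measured 87 bp, scored 54.4 and ranked 93. The 1.5 h peak measured 268 bp, scored 199.9 and ranked 12, the best of the 3 in that list. ESCs had a 778 bp peak there in LIF+BMP-4 with a score of 50.8, close to the lowest score of that list (50.0), and its rank was 14333 of 14696. The nearest LIF+serum peak was 18.2 kb away. The order of the 3 sites by rank was thus H, G, C after 24 h and C, H, G after 1.5 h. The lowest score of the 24 h list was 50.15 and its median 59.49, so the 24 h order rests on small differences in score. Without replicates, the difference in order cannot be set against an error.

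**Figure D2:**
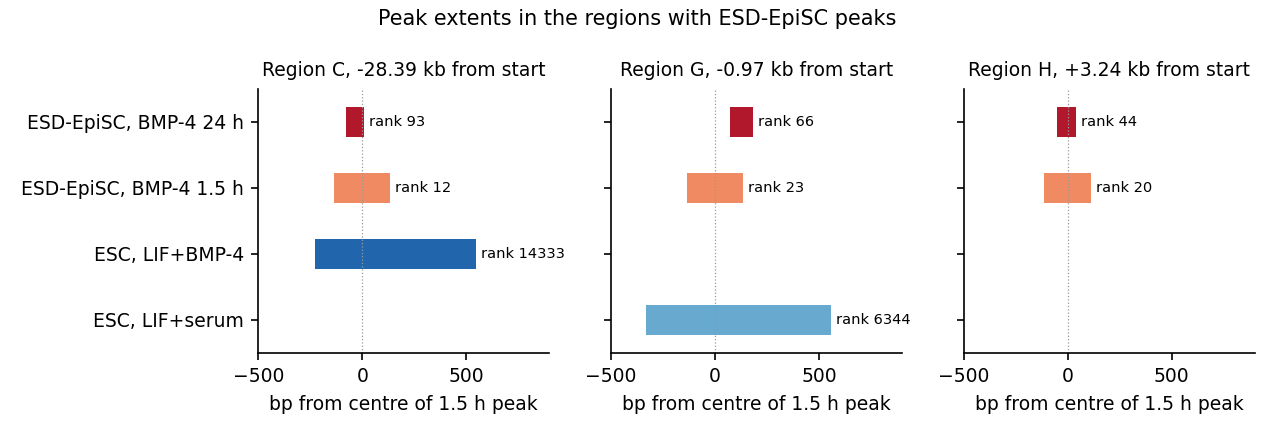
Extents of the peaks in regions C, G and H, in bp from the centre of the 1.5 h peak, with each peak's rank in its own list. The 24 h peaks of C and H lie inside the 1.5 h peaks, the 24 h peak of G extends past the 1.5 h peak on the side of Id1, and the ESC peaks of C and G contain both.

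At each of regions C, G and H the 24 h peak covered less sequence than the 1.5 h peak. In C it lay entirely within the 1.5 h peak, with midpoints 36.5 bp apart, and in H it did so with midpoints 6.5 bp apart. In G only 62 bp overlapped, 55.4% of the 24 h peak, and its midpoint lay 128 bp closer to Id1. The 24 h widths were 0.325, 0.418 and 0.397 times the 1.5 h widths in C, G and H. Among the 15 pairs of 24 h and 1.5 h peaks over the genome that met each other and no other peak, these 3 included, the median width ratio was 0.761 and 5 of the 24 h peaks (33.3%) lay within the 1.5 h peak. The median distance between midpoints in those pairs was 36.5 bp. The list medians were 102 bp after 24 h and 123 bp after 1.5 h. Accordingly the 1.5 h peaks at Id1 were wider than 86.2 to 90.7% of their list, and the 24 h peaks than 33.8 to 62.4% of theirs. Peak width and score both depend on depth and on the control, so the change in extent was not separated from a difference between libraries. The ESC peaks of C and G contained the ESD-EpiSC peaks, which was the usual case. Over the genome, 95.5 to 100% of ESD-EpiSC peaks lay inside the ESC peak, by pair of lists, where the 2 met no other peak. The median widths of the ESC lists were 500 bp in LIF+BMP-4 and 811 bp in LIF+serum.

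All ESD-EpiSC peaks of the interval were called at both times, 3 of 3 after 24 h and 3 of 3 after 1.5 h (exact binomial 95% interval 29.2 to 100% for each). Over the whole lists, 12.8% of 24 h peaks (17 of 133) met a 1.5 h peak and 7.11% of 1.5 h peaks (16 of 225) met a 24 h peak. Both counts of 3 are the same overlapping pairs at C, G and H, seen from each list, so the second adds no evidence. These intervals cover counting error only, and neighbouring peaks of 1 library are not independent. All 3 peaks at 1.5 h scored at least 100, a level that 44 of 225 peaks of that list reached. In the 24 h list 0 of 3 peaks at Id1 reached it, as against 10 of 133 in the whole list. Scores are not comparable between the lists, so these counts do not compare binding at the 2 times. The median rank of the 3 sites was 66 after 24 h and 20 after 1.5 h. In the 14 other regions called at both times the median ranks were 38.5 after 24 h and 61.5 after 1.5 h, with ranges of 1 to 127 after 24 h and 5 to 143 after 1.5 h. The Id1 sites lay within these ranges at both times. The 24 h range spans nearly the whole list of 133 peaks, so lying within it says little. After 1.5 h the Id1 ranks of 12 (C), 20 (H) and 23 (G) lay near the better end of the range of the other regions. Ranks from lists of different lengths do not measure a change in binding.

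The ESD-EpiSC peaks at Id1 also stood close together in otherwise sparse lists. G and H were 4.08 kb apart after 24 h and 4.07 kb apart after 1.5 h, and C and G were 27.5 kb apart after 24 h and 27.2 kb apart after 1.5 h. The next peak of the 24 h list on chromosome 2 was 6.41 Mb upstream and 4.82 Mb downstream. In the 1.5 h list it was 0.614 Mb upstream and 4.82 Mb downstream. In the whole lists, 21.1% of 24 h peaks (28 of 133) and 24% of 1.5 h peaks (54 of 225) had another peak of their list within 50 kb. Within 5 kb, as for G and H, the shares were 10.5% (14 of 133) after 24 h and 19.6% (44 of 225) after 1.5 h. When the genome was divided into 12853 tiles of 200 kb in register with the interval, 2 tiles (0.0156%) held at least 3 peaks of the 24 h list, and 9 tiles (0.07%) at least 3 of the 1.5 h list. Only 2 tiles did so for both lists, the Id1 interval among them. With tiles shifted by 100 kb the count for both lists was 0, and a shifted boundary then ran between C and G.

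The calls in ESCs were spread more widely. In LIF+BMP-4, 6 of 8 peaks lay upstream of the Id1 start and 2 downstream, and in LIF+serum 4 of 5 lay upstream and 1 downstream. Together the LIF+BMP-4 peaks covered 5162 bp and the LIF+serum peaks 5218 bp, with widths of 312 to 930 bp for LIF+BMP-4 and of 773 to 1246 bp for LIF+serum. At least 8 peaks of the LIF+BMP-4 list were found in 203 tiles (1.58%) and at least 5 of the LIF+serum list in 358 tiles (2.79%). The Id1 interval was the only tile that held at least its own number of peaks in each of the 4 lists (0.00778%). It passes by definition, since the limits are its own counts and the tiles are in register with it. With tiles shifted by 100 kb, 0 tiles did so.

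**Figure D3:**
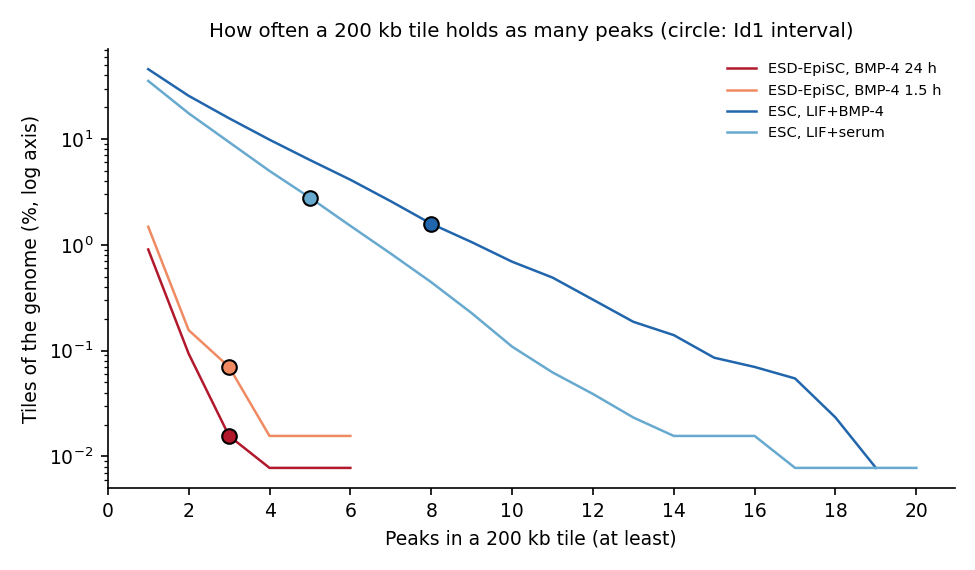
Share of 200 kb tiles of the genome (%, log axis) that hold at least a given number of peaks, by list, with circles at the count of the Id1 interval. The circles stand at 3 peaks (0.0156%) for 24 h, 3 peaks (0.07%) for 1.5 h, 8 peaks (1.58%) for LIF+BMP-4 and 5 peaks (2.79%) for LIF+serum.

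Among the sites found in both ESC media, region B was the strongest. It lay at 152511983 to 152513228, with its centre at -49.4 kb. In LIF+BMP-4 the peak was 824 bp wide, scored 679 and ranked 46 of 14696, with 99.7% of the list lower. In LIF+serum it was 1246 bp wide, scored 329.7 and ranked 96 of 9387, with 99.0% of the list lower. The nearest ESD-EpiSC peak was 20.14 kb away after 24 h and 20.08 kb away after 1.5 h. Of the 100 best ranked peaks of each ESC list, 14 of the LIF+BMP-4 list (14%) and 8 of the LIF+serum list (8%) met an ESD-EpiSC peak of either time, so a strong ESC peak without an ESD-EpiSC call was the usual case.

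Region J, the most distal downstream site, followed B in both media. It lay at 152645627 to 152646771, with its centre at 84.2 kb, and ranked 426 in LIF+BMP-4 (score 266) and 440 in LIF+serum (score 195.1). Its midpoints in the 2 media were 5 bp apart. Regions D and A took the next places, in opposite order. Region D, at 152552175 to 152553338 and centred at -9.24 kb, ranked 1217 in LIF+BMP-4 (91.7% of the list lower) and 3063 in LIF+serum (67.3% lower). Region A, at 152497089 to 152497875 and centred at -64.5 kb, ranked 5398 in LIF+BMP-4 (63.3% lower) and 1429 in LIF+serum (84.8% lower). Without replicates, these differences in rank cannot be set against an error.

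In these 4 shared regions the LIF+BMP-4 peak was the narrower every time, at 0.755, 0.661, 0.799 and 0.549 times the LIF+serum width in A, B, D and J. The same held for 4938 of 5330 such pairs over the genome (92.6%), with a median ratio of 0.674. The midpoints were 108.5, 81, 27 and 5 bp apart in A, B, D and J, against a genome median of 70.5 bp.

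The remaining LIF+BMP-4 calls stood alone in their regions and ranked in the middle or lower part of their list, with 53.1% (E), 38.8% (F) and 34.5% (I) of it scoring lower. E, at 152554881 to 152555300 and centred at -6.91 kb, ranked 6892 with a score of 79.3. F, at 152557744 to 152558055 and centred at -4.10 kb, ranked 8987 with a score of 67.8. It was the LIF+BMP-4 peak closest to Id1 and, at 312 bp, was wider than only 3.9% of its list. I, at 152618071 to 152618755 and centred at 56.4 kb, ranked 9628 with a score of 64.8. D, E and F followed each other with gaps of 1.54 and 2.44 kb, and G followed F after 2.53 kb. The stretch from D to H therefore held 5 of the 10 regions, and it was followed downstream by 52.7 kb without a call in any list.

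**Figure D4:**
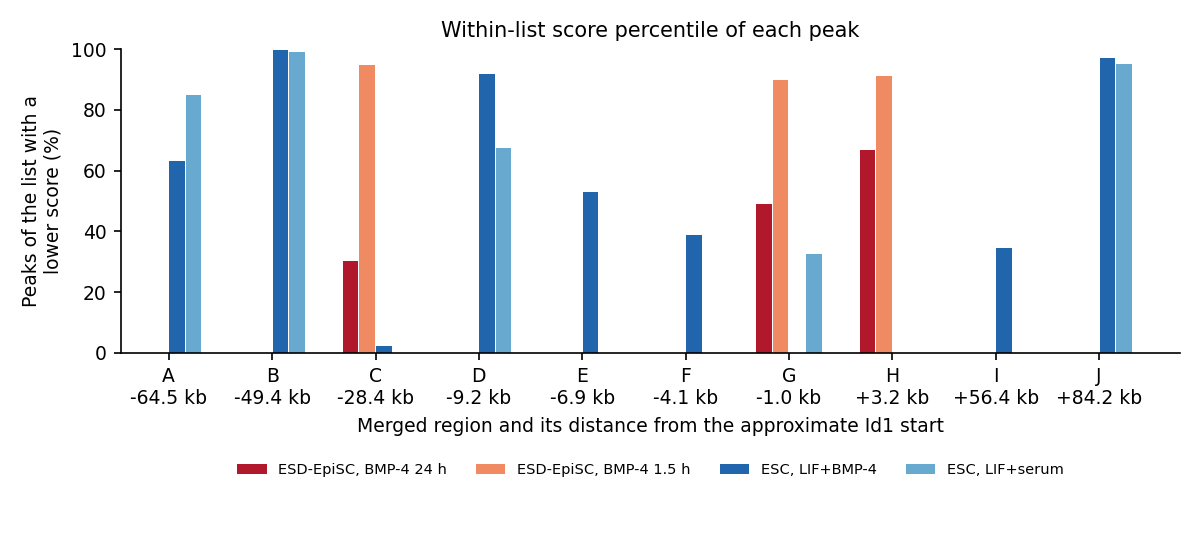
Share of each list with a lower score (%) for every peak in regions A to J, with the distance of the region from the approximate Id1 start. Bars reach 89.8 to 94.7% for 1.5 h at C, G and H, but 2.37% for LIF+BMP-4 at C and 32.4% for LIF+serum at G. The highest ESC bars are at B and J, where ESD-EpiSCs have none.

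Sharing between the ESC media in the interval was above that of the whole lists in both directions, but rested on 8 and 5 peaks. A LIF+serum peak met 4 of the 8 LIF+BMP-4 peaks (50.0%, 15.7 to 84.3), against 38.7% of the list. A LIF+BMP-4 peak met 4 of the 5 LIF+serum peaks (80.0%, 28.4 to 99.5), against 58.8% of the list. Both whole-list shares lay within the intervals of the Id1 shares, which are too wide to show whether the shares differ. Both counts are the same overlaps in A, B, D and J, seen from each list.

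Sharing between primed and naive cells at this locus fell on ESC peaks that ranked low by score but not by width. Of the ESD-EpiSC peaks, 2 of 3 after 24 h and 2 of 3 after 1.5 h met an ESC peak (66.7%, 9.43 to 99.2, at each time), against 27.1% of the whole 24 h list and 34.7% of the whole 1.5 h list. Seen from the ESC side, 1 of 8 LIF+BMP-4 peaks (12.5%, 0.316 to 52.7) met an ESD-EpiSC peak of either time, against 0.517% of the whole list. In LIF+serum 1 of 5 peaks did (20.0%, 0.505 to 71.6), against 0.735% of the whole list. Each of these whole-list shares lay within the interval of its Id1 share. All these Id1 counts come from regions C and G and are not separate observations. At C the match was in LIF+BMP-4 alone and at G in LIF+serum alone. Among the 17 regions called at both times, that pattern was seen in 1 region for LIF+BMP-4, which is C, and in 2 for LIF+serum, of which G is one. Another 7 of the 17 had peaks in both media. The ESC peak at C had 2.37% of the LIF+BMP-4 list below it, whereas the 76 LIF+BMP-4 peaks met by an ESD-EpiSC peak had a median of 86.9%, and 3 of the 76, C included, ranked at or below that position. By width, the ESC peak at C exceeded 91.1% of its list. The ESC peak at G had 32.4% of the LIF+serum list below it, whereas the 69 LIF+serum peaks met by an ESD-EpiSC peak had a median of 84.0%, and 8 of the 69, G included, ranked at or below it. By width, the ESC peak at G exceeded 62.6% of its list.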

How the data were processed

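For each immunoprecipitated library the authors deposited a list of peaks, in mm9 positions and with a score for each peak. MACS 1.4.2, Picard and Bowtie 1.1.0 appear in the submitters' processing notes, with no step assigned to any. The sources used here do not give the read filters, the control behind each list, the scale of the deposited score or the number of reads, so depth and its precision are unknown. Libraries were grouped by their labels. The 2 input libraries were not analysed here.

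Peaks overlapping the interval were taken in each list. Sharing meant an overlap of at least 1 bp, and overlapping or touching peaks were merged into regions. Percentiles are shares of a list with a lower score. Tiles ran from the first to the last peak of each chromosome. All 19 peaks are described, following a rule that also covered the 5 best ranked of each ESC list and any peak within 5 kb of the Id1 start. The members and rules were chosen with earlier results of these data known. Intervals are exact binomial (Clopper-Pearson) and cover counting error only. Python 3.11.15, numpy 2.4.6, pandas 2.3.3, scipy 1.17.1 and matplotlib 3.10.9 were used. The overlap code was tested on simulated data and gave the same counts as bedtools 2.31.1. Gene order came from RefSeq (GRCm38.p6), with no positions taken from it. The Id1 promoter motif search was not run. The alternatives tried were another score minimum, overlap, extension, merging, interval, tile start, ranking and Id1 start.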

Additional observations from a re-analysis of the deposited data

How the results depend on the processing

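No paired analysis was possible because no group has a second library. When only peaks scoring 100 or more were kept, the interval held 0 peaks after 24 h, 3 after 1.5 h, 3 for LIF+BMP-4 and 3 for LIF+serum. It left 0 regions called at both times and 2 called in both ESC media, and of the 1.5 h peaks 0% met a 24 h peak and 0% an ESC peak. The 24 h peaks at C, G and H scored 54.4, 59.5 and 66.3, below that limit. So did the ESC peaks at C (50.8) and G (60.8), the LIF+BMP-4 peak of A (90.1) and the LIF+serum peak of D (86.3). For 24 h peaks no share could be given at that limit. A 100 kb interval with the same centre held 5 LIF+BMP-4 and 3 LIF+serum peaks and left the ESD-EpiSC counts at 3. Tiles shifted by 100 kb gave 0 tiles for both ESD-EpiSC lists and 0 for all 4 lists. Ranked by width in place of score, the median peak of the interval exceeded 34.6% of the 24 h list (48.9% by score), 80.9% of the LIF+BMP-4 list (58.2% by score) and 87.8% of the LIF+serum list (84.8% by score). Moving the assumed Id1 start 1 kb upstream put the nearest midpoint at 0.05 kb after 24 h, -0.08 kb after 1.5 h, -3.10 kb for LIF+BMP-4 and 0.03 kb for LIF+serum, so the 24 h and LIF+serum midpoints turned to the downstream side. Moving it 1 kb downstream gave -1.95 kb after 24 h, -2.08 kb after 1.5 h, -5.10 kb for LIF+BMP-4 and -1.97 kb for LIF+serum. Whether region G lies just upstream of the start or on it therefore rests on the approximate position. Overlap of 50% of the shorter peak, extension by 1 kb, merging within 1 kb and removal of chromosome Y, unplaced sequences and peaks over 5 kb from the ranking changed no count or median past its limit (the exact interval for shares and percentiles, 1.5 times for counts). The limits for shares are wide, since they rest on few peaks, so few changes could pass them. Extension by 1 kb did raise the LIF+BMP-4 peaks that met a LIF+serum peak from 4 of 8 to 5 of 8.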
